A study of Mus musculus with 6 samples.

Results

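The cytosolic ribosomal protein genes encode the proteins of the small (Rps) and large (Rpl) ribosomal subunits. They were taken as the probe sets of the Mouse Genome 430 2.0 array whose annotation names a single gene, where that gene's symbol is Rpl or Rps followed by a number (with an optional letter and digit) or is *Rplp0*, *Rplp1*, *Rplp2* or *Rpsa*. The Rps6k kinases and the pseudogenes were left out. A probe set is the group of short probes that reads 1 transcript. Where a gene had several, the one with the highest mean log2 intensity over all arrays stood for it. The rule gave 49 genes of the 18193 measured in this way. Another 28 symbols that fit it, among them *Rpl5* and *Rplp1*, occur only in probe sets annotated to several genes, mostly together with predicted genes and pseudogenes.

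Each ribosome holds a single copy of nearly every ribosomal protein, so that cells make these proteins in matched amounts, and the mRNAs are among the most abundant of any dividing cell. Most begin with a run of pyrimidines at the cap, the 5′TOP motif, through which mTORC1 controls their translation. T cells raise ribosome production when antigen moves them from rest to rapid division. KLF2 is a transcription factor of resting T cells that is normally lost on activation.

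The study asked how activated CD8 T cells change when KLF2 expression is kept. Both groups were T cells from spleens of C57BL/6 mice, 8 to 12 weeks old, that carry the P14 T cell receptor transgene, which recognises an LCMV peptide. They were stimulated with gp33-41 peptide for 48 h, transduced with retrovirus 18 h after its addition, grown in IL-2 for a further 48 h to become cytotoxic T lymphocytes (day 4), and sorted for GFP. The 48 h in IL-2 are those of the labels and methods, and a legend of the study gives a longer time. The evGFP cells (GFPpos in the paper) carried the empty vector and the GFP-KLF2 cells (GFP-KLF2pos) carried the fusion gene, with 3 arrays labelled as biological replicates in each group. The cells were thus transduced, cultured and sorted cells that express KLF2 from a vector and not from its own gene, and no resting cells were on the arrays analysed here. Values are log2 of the RMA intensity that the authors deposited, and intensities of different probe sets do not rank the amounts of their mRNAs.

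The arrays were close to each other, with Pearson's r across probe sets of 0.993 to 0.996 within a group and 0.982 to 0.990 between groups. The *Klf2* probe set reads a part of the mRNA that the construct lacks and checks no label (log2 10.99, 10.37 and 8.80 in evGFP and 9.83, 9.67 and 8.74 in GFP-KLF2; limma adjusted p = 0.552). *S1pr1*, a known target of KLF2, was 2.00 log2 units higher in GFP-KLF2 cells (adjusted p = 0.00125). CD8 T cell markers were present, at log2 7.35 to 14.82 over 10 genes, and 3 of them rose, namely *Cd8b1* (0.45), *Prf1* (2.52) and *Ifng* (2.79). *Cd5* differed by -1.12 (limma adjusted p = 0.0493, and 0.00916 with the replicate number as a block). Of markers of other cells, none of 6 for B cells, 3 for CD4 T cells, 2 for NK cells and 2 for erythroid cells passed the test (2 for B cells were higher at an unadjusted p under 0.05), while *Tyrobp*, 1 of 8 myeloid markers, was 1.48 higher. The log2 of the 8 summed myeloid markers was 8.56 to 8.71 in evGFP and 8.93 to 8.97 in GFP-KLF2, and its part in the results below was not tested. For the *Actb* control, the 3′ probe sets exceeded the 5′ ones by 0.111 to 0.121 in evGFP and by 0.077 to 0.084 in GFP-KLF2 arrays, and the part of this was not tested either.

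The bases around the annotated start of transcription show the pyrimidine run from which these mRNAs take the name 5′TOP. They are shown for the genes on which the results turn, namely the 4 that passed the test, both paralogs next in size of change, and *Rps6*. Each line holds 10 bases before the start and 20 from it, 5′ to 3′ on the gene's strand, from RefSeq on GRCm38.p6. Capitals mark a C followed by at least 4 C or T that begins within 5 bases of the start.
*Rpl12*, chr2:32961702-32961731, plus strand: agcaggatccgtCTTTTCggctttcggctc
*Rpl14*, chr9:120571507-120571536, plus strand: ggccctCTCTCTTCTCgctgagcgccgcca
*Rps25*, chr9:44407704-44407733, plus strand: ccgacatcttagcgaggctgctgtggtcta
*Rpl7l1*, chr17:46782637-46782666, minus strand: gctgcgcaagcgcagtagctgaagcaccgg
*Rps27l*, chr9:66946076-66946105, plus strand: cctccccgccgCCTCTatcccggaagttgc
*Rpl22l1*, chr3:28805498-28805527, plus strand: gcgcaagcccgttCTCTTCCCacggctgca
*Rps6*, chr4:86857348-86857377, minus strand: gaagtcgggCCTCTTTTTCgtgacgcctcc
The windows of *Rps25* and *Rpl7l1* hold no such run. *Rps27l* has 2 annotated starts and the others 1.

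Of the 49 ribosomal protein genes, 4 fell in GFP-KLF2 cells, none rose and 45 did not pass the test. The 4 were *Rpl12* and *Rpl14* of the large subunit, *Rps25* of the small subunit and *Rpl7l1*, a paralog of *Rpl7*, and their levels were 1.29- to 1.61-fold lower. The test was limma on log2 values, 2-sided, with Benjamini-Hochberg adjustment over 45037 probe sets and an adjusted p under 0.046. Among all genes 8.35% fell and 6.22% rose, so that the 8.163% of ribosomal protein genes that fell is near the background. With the replicate number as a block the same 4 fell, where 12.1% of all genes fell and 8.58% rose. At an unadjusted p under 0.05, 5 were lower and 1 was higher. The median log2 fold change was -0.02, against -0.01 over all genes. In RNA of bulk cells, fewer cells of a type and less RNA per cell cannot be told apart.

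**Figure D1:**
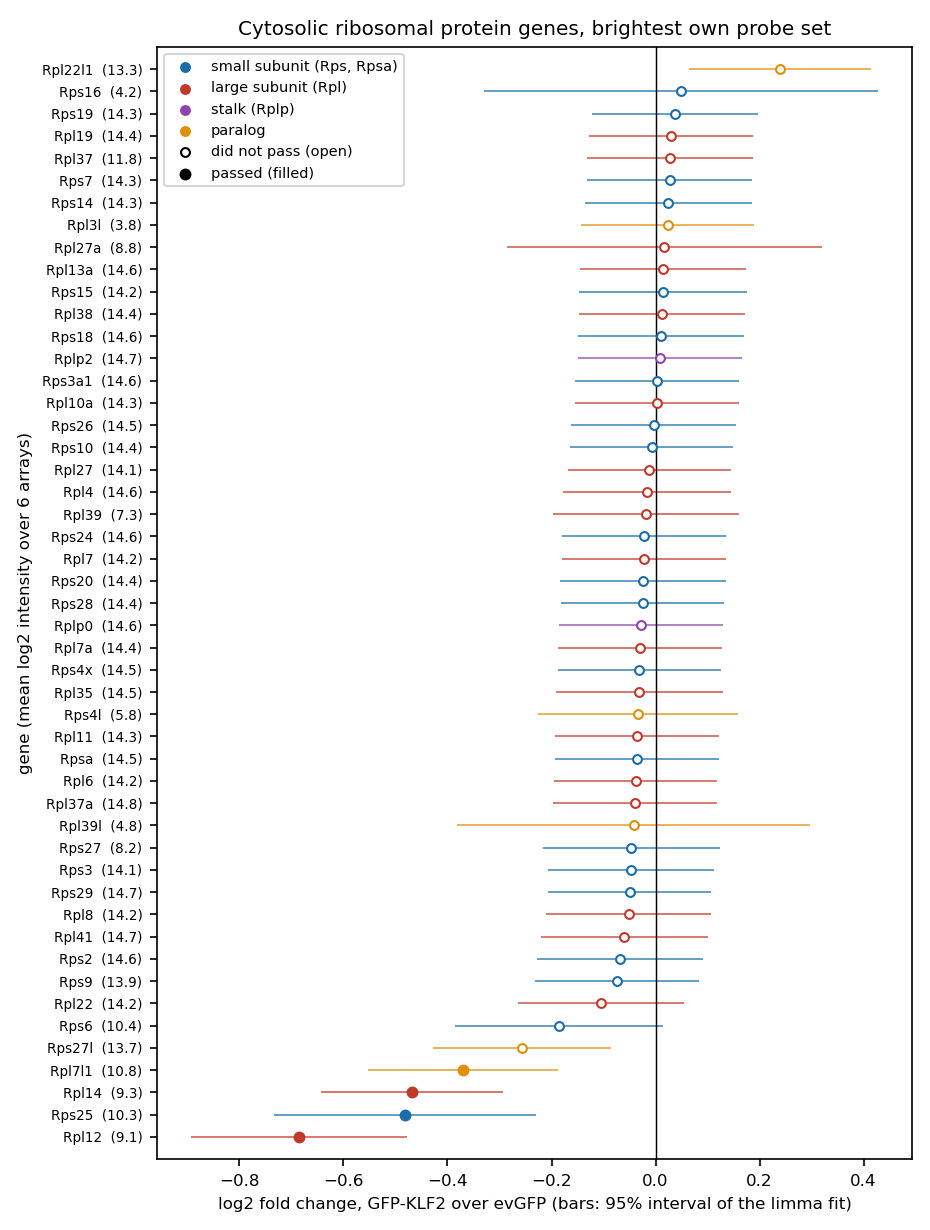
Log2 fold change of GFP-KLF2 over evGFP cells for each of the 49 genes (horizontal axis) with its 95% interval from the limma fit, in order of size, with the mean log2 intensity over 6 arrays beside each symbol and colours for subunit. Most genes sit at 0 with intervals that span it, the 4 filled points at the bottom passed the test, and *Rpl22l1* at the top and *Rps27l* near the bottom have intervals that leave out 0 but did not pass.

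*Rpl12* encodes a protein at the base of the ribosomal stalk, where translation factors dock. Its log2 intensity was 9.47, 9.42 and 9.30 in evGFP and 8.59, 8.80 and 8.75 in GFP-KLF2 arrays. Every GFP-KLF2 array thus lay below every evGFP array, and the difference was -0.68 (SE 0.09, 95% interval -0.89 to -0.48, limma adjusted p = 0.00444). *Rpl14*, a protein of the large subunit, read 9.52, 9.55 and 9.43 in evGFP and 8.99, 9.03 and 9.07 in GFP-KLF2 arrays. Its groups did not overlap either, with a difference of -0.47 (SE 0.07, adjusted p = 0.00922).

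*Rps25*, a small subunit protein known for its need in translation from some internal ribosome entry sites, read 10.52, 10.63 and 10.36 in evGFP and 10.03, 10.16 and 9.87 in GFP-KLF2 arrays. Its groups did not overlap, and the difference was -0.48 (SE 0.11, limma adjusted p = 0.0296). *Rpl7l1*, which acts in the assembly of the large subunit, read 10.94 to 11.06 in evGFP and 10.62, 10.71 and 10.56 in GFP-KLF2 arrays, a difference of -0.37 (SE 0.08, adjusted p = 0.024). Its 2 dimmer probe sets also fell, by 0.52 and 0.40 log2 units. The calls for these 2 genes rest on all 6 arrays being used. Without evGFP array 1 or 2, or GFP-KLF2 array 1 or 3, neither *Rps25* (adjusted p 0.075 to 0.104) nor *Rpl7l1* (0.0666 to 0.0833) passed and the count fell from 4 to 2, and without GFP-KLF2 array 2 *Rpl7l1* was at 0.0463. With cyclic loess they were at 0.0753 and 0.069. *Rpl12* and *Rpl14* passed whichever array was left out, at 0.00839 to 0.0456.

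**Figure D2:**
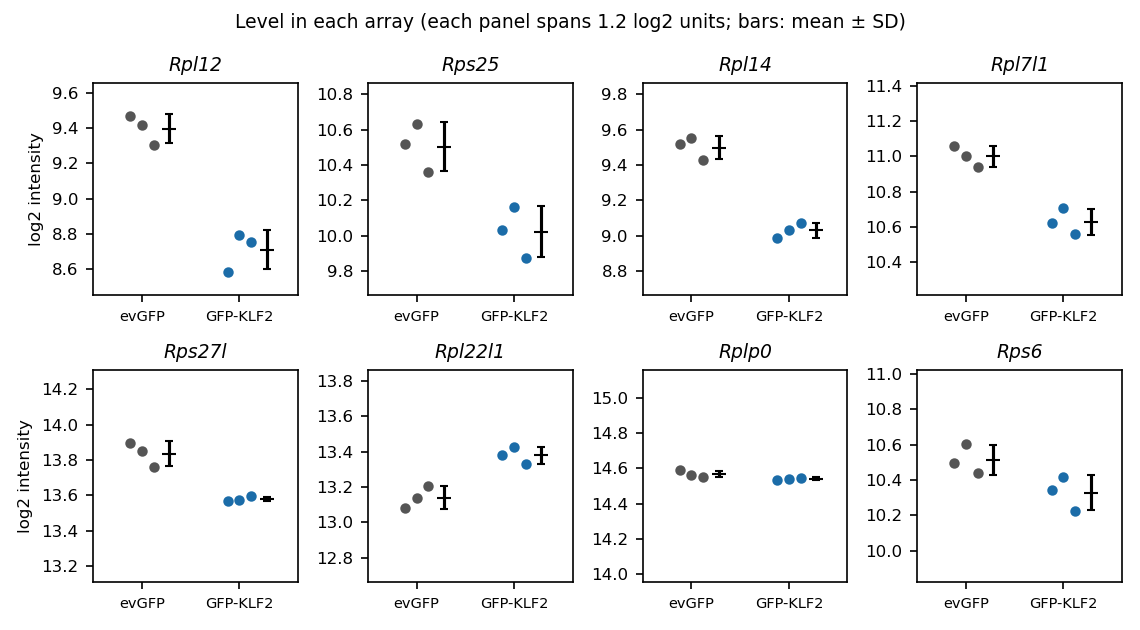
Log2 intensity (vertical axes, 1.2 log2 units in each panel) of 8 ribosomal protein genes in each of the 3 evGFP (grey) and 3 GFP-KLF2 (blue) arrays, with the group mean and SD as black bars. The groups are well apart for *Rpl12*, *Rps25*, *Rpl14*, *Rpl7l1*, *Rps27l* and *Rpl22l1*. They lie close without overlap for *Rplp0* and *Rps6*. These and both *Rps27l* and *Rpl22l1* did not pass the test.

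Of 21 small subunit genes 1 fell (*Rps25*, 4.76%) and of 22 large subunit and stalk genes 2 fell (*Rpl12* and *Rpl14*, 9.09%), against 8.35% of all genes. None of either rose (also at an unadjusted p under 0.05), against 6.22% of all genes. In each of these sets 17 genes had a mean log2 of 13 or more, and none of those passed. Over all genes of each set, the median log2 fold changes were -0.02 and -0.03. *Rplp0*, which anchors the stalk, read 14.59, 14.56 and 14.55 in evGFP and 14.53, 14.54 and 14.55 in GFP-KLF2 arrays. *Rplp2*, a stalk protein, read 14.69, 14.70 and 14.69 against 14.70, 14.73 and 14.68. The difference was -0.03 (95% interval -0.19 to 0.13) for *Rplp0* and 0.01 (-0.15 to 0.17) for *Rplp2*. *Rpsa*, the small subunit protein also known as the laminin receptor, differed by -0.04 (-0.19 to 0.12), and *Rpl11*, which can bind the p53 inhibitor Mdm2, by -0.04 (-0.19 to 0.12).

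*Rps6*, the substrate of the S6 kinases downstream of mTORC1, read 10.49, 10.60 and 10.44 in evGFP and 10.34, 10.42 and 10.22 in GFP-KLF2 arrays. Each GFP-KLF2 array lay below each evGFP array, and the difference of -0.19 (95% interval -0.39 to 0.01) did not pass the test (limma adjusted p = 0.239). Brighter probe sets annotated to *Rps6* together with other genes, at a mean log2 of 14.53 to 14.75, differed by -0.06 to 0.02 and did not pass.

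The paralogs are near copies of core ribosomal proteins, and some have roles outside the ribosome. Of 6 measured, *Rpl7l1* fell and 5 did not pass the test. *Rps27l*, a paralog of *Rps27* known as a p53 target, read 13.90, 13.85 and 13.76 in evGFP and 13.57, 13.58 and 13.59 in GFP-KLF2 arrays. The groups did not overlap and the difference was -0.26 (95% interval -0.43 to -0.09), but the limma adjusted p was 0.065. Its 2 dimmer probe sets gave -0.22 and -0.20. *Rpl22l1*, the paralog of *Rpl22*, had values of 13.08, 13.14 and 13.20 in evGFP and 13.38, 13.43 and 13.33 in GFP-KLF2 arrays, so that each GFP-KLF2 array lay above each evGFP array. Its difference was 0.24 (0.07 to 0.41) with an adjusted p of 0.0861. *Rpl22* itself, needed for the development of alpha-beta T cells, differed by -0.11 (-0.27 to 0.05). Both paralogs passed with an intensity trend and a robust prior in the variance model (adjusted p 0.00688 for *Rps27l* and 0.0139 for *Rpl22l1*) and when probe sets under a mean log2 of 6 were left out (0.0296 and 0.0402). Neither passed in the limma fit blocked by replicate (adjusted p 0.0725 for *Rps27l* and 0.0949 for *Rpl22l1*). Leaving out any 1 array gave 0.069 to 0.177 for *Rps27l* and 0.0983 to 0.224 for *Rpl22l1*, so that neither passed there either.

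*Rpl3l*, *Rpl39l* and *Rps4l*, known from muscle, from testis and as a copy of *Rps4x*, were dim, with mean log2 intensities of 3.82, 4.79 and 5.82. Their differences lay between -0.04 and 0.02. *Rps16* and *Rpl39*, at 4.24 and 7.27, complete the 5 dimmest, with differences of 0.05 and -0.02. Both encode core ribosomal proteins, and for *Rpl39* a probe set annotated to it together with other genes read 14.70, so that a dim probe set here is no sign of a rare mRNA.

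Most of the genes were read near the top of the array's range. The highest value on any array was a log2 of 15.04, and 36 of the 49 genes had a mean of 13 or more and 33 of 14 or more. They made up 33 of the 57 genes in all at 14 or more. The 5 brightest were *Rpl37a* (14.77), *Rpl41* (14.74), *Rplp2* (14.70), *Rps29* (14.67) and *Rps18* (14.64), with differences of -0.04, -0.06, 0.01, -0.05 and 0.01. None of the 36 passed the limma test, and 1 was lower and 1 higher at an unadjusted p under 0.05 (*Rps27l* and *Rpl22l1*). Among all 226 genes at 13 or more 5.75% fell and 9.29% rose, and among the 190 of them outside the 36, 6.84% and 11.1%. The 33 genes at 14 or more differed by -0.11 to 0.04, and their 95% intervals all lay between -0.27 and 0.20.

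Of the 24 other genes at 14 or more, 3 rose and 1 fell, with differences from -1.14 to 0.49. Whether saturation narrows the differences of the ribosomal protein genes was not tested. The median SD within a group was 0.0175 for the 33 genes and 0.0410 for the 24 others.

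All 3 GFP-KLF2 arrays lay below all 3 evGFP arrays for 21 of the 49 genes and above them for 3, where 20.6% and 14.3% of all genes did so. This direction depended on the scaling, and of those tried cyclic loess alone reversed it. With arrays centred on their medians 27 genes were below and 1 above, and with quantile normalization 18 and 4. With cyclic loess between arrays 5 genes were below and 16 above, against 16.2% and 18.1% of all genes. Among the 36 genes at 13 or more, 24 differences were under 0 and 12 above, also with quantile normalization. With arrays centred on their medians 28 were under 0 and 8 above, but with cyclic loess 6 were under 0 and 30 above. No direction is therefore given for the bright genes.

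Probe sets of the same genes that read lower on the intensity scale gave another picture. The 49 genes had 105 probe sets of their own, namely the brightest of each and 56 dimmer ones. In all 13 fell and none rose, where over all probe sets of the array 6.39% fell and 4.76% rose. Of the 69 at 13 or more none passed, with 4 lower and 1 higher at an unadjusted p under 0.05. Of the 22 between 6 and 11, 12 fell and none rose (13 and 0 at an unadjusted p under 0.05), and 20 differences were under 0. With the paralogs left out, 9 of 19 in this range fell. Among all probe sets in that range 12.4% fell, 8.83% rose and 57.4% were under 0. The range was chosen after the values were seen. Of the 12 probe sets under 6, 1 fell, and it lay at 5.99. With the replicate number as a block 12 of the 22 fell as well, where 18.3% of all probe sets in the range fell and 12.4% rose. Of all 105, 15 fell in the blocked fit and none rose, where 4292 of 45037 probe sets of the array fell and 3033 rose. Among the 15 were probe sets of *Rps20* at a mean log2 of 5.68 and 5.45 (differences -0.64 and -0.62, blocked limma adjusted p 0.0128 and 0.0209). The brightest probe set of *Rps20* differed by -0.02.

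**Figure D3:**
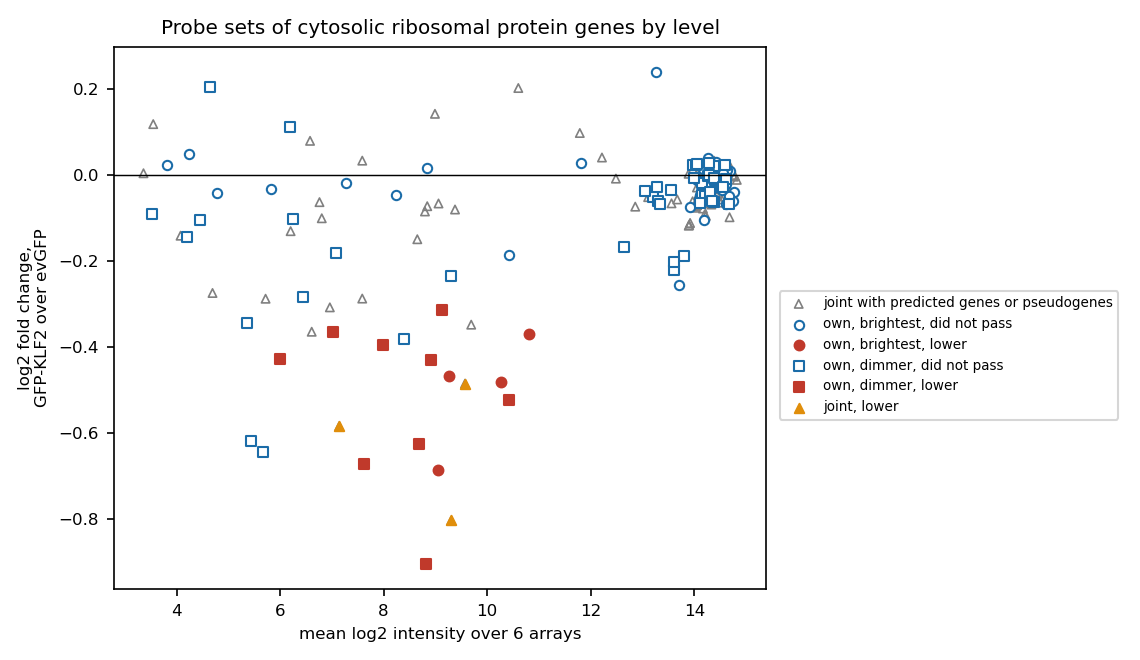
Mean log2 intensity over 6 arrays (horizontal axis) against the log2 fold change of GFP-KLF2 over evGFP cells (vertical axis) for the 105 probe sets of the 49 genes (circles and squares) and for 99 probe sets annotated to a ribosomal protein gene together with predicted genes or pseudogenes alone (triangles). Filled symbols passed the test: they lie at intensities of about 6 to 11, whereas the cluster at 13 and above lies near 0 with none filled.

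The 22 probe sets stand for 17 genes, and probe sets of 1 gene are not independent. The median deviation of the dimmer probe sets among them from their mean over evGFP arrays was 0.17, -0.04 and -0.13 in the evGFP arrays and -0.38, -0.36 and -0.35 in the GFP-KLF2 arrays. The count of 12 fell to 6 without evGFP array 1, 4 without evGFP array 2, 4 without GFP-KLF2 array 1, 7 without GFP-KLF2 array 2, 6 without GFP-KLF2 array 3 and 6 with cyclic loess. No probe set in the range rose in any of these fits.

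In 9 genes both kinds of probe set could be set side by side, namely *Rpl22*, *Rpl37a*, *Rpl41*, *Rps3*, *Rps4x*, *Rps9*, *Rps10*, *Rps18* and *Rps24*. Their 22 bright probe sets, at 13 or more, differed by -0.19 to 0.03 and none passed (1 was lower at an unadjusted p under 0.05). Of their 12 dim probe sets, between 6 and 11, 6 fell, in 5 of the genes, none rose, and 11 differences were under 0. Among all probe sets in that range 12.4% fell, 8.83% rose and 57.4% were under 0. The 12 come from 9 genes and are not all independent. For *Rps9*, a protein of the small subunit, the dim probe set read 9.59, 9.19 and 9.05 in evGFP and 8.39, 8.40 and 8.32 in GFP-KLF2 arrays. That is a difference of -0.91 (limma adjusted p = 0.00787), while its bright probe sets gave -0.07 and -0.04.

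For *Rpl22* the dim probe set read 8.14, 7.92 and 7.81 in evGFP and 7.31, 7.17 and 7.36 in GFP-KLF2 arrays, a difference of -0.67 (limma adjusted p = 0.00906), beside -0.19 and -0.11 in its bright ones. For *Rpl41*, the smallest ribosomal protein, the dim probe sets gave -0.63 and -0.43. *Rps10* and *Rps3*, which lie near the path of the mRNA into the small subunit, gave -0.36 and -0.31. *Rps24*, *Rps18*, *Rpl37a* and *Rps4x* had probe sets in this range at -0.38 to 0.11, none of which passed. A further probe set of *Rps18* lay just outside it, at a mean log2 of 5.99, and fell by 0.43 (limma adjusted p = 0.0168). Within a gene, then, the size of the difference went with the probe set that read it.

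**Figure D4:**
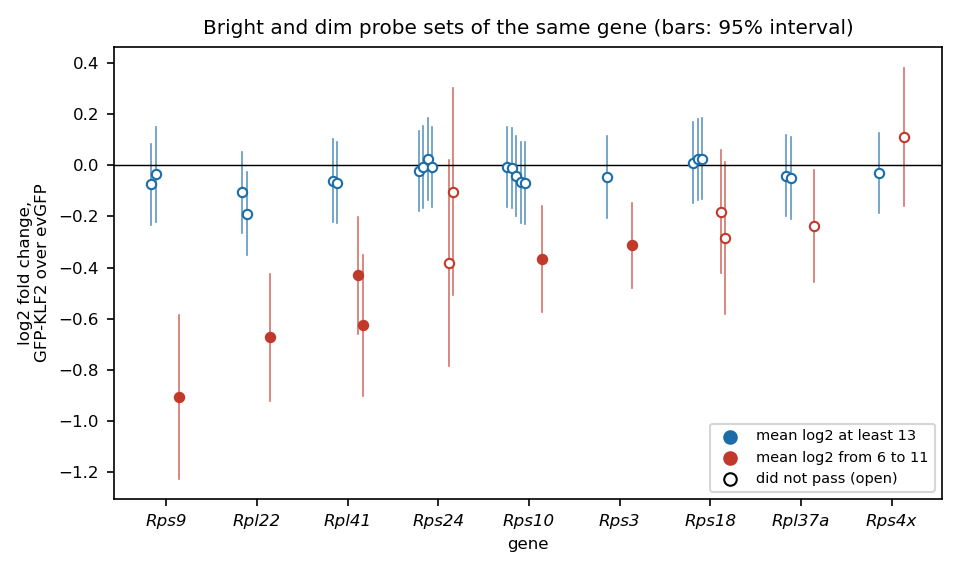
Log2 fold change of GFP-KLF2 over evGFP cells (vertical axis) with 95% intervals for every probe set of the 9 genes that had probe sets of their own both at a mean log2 of 13 or more (blue) and between 6 and 11 (red). The blue points lie at -0.19 to 0.03 in every gene and the red points reach -0.91 in *Rps9*.

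The genes that fell were read in this range too. *Rpl12*, *Rpl14* and *Rps25* had a single probe set of their own, read between 9.05 and 10.26. Probe sets at 13 or more exist for them but are annotated together with other genes. For *Rpl12* these read -0.05 and -0.08, for *Rpl14* -0.12 to -0.07 and for *Rps25* -0.02. None of 14 such probe sets of 6 genes (the others being *Rpl27a*, *Rpl39* and *Rps6*) passed, also at an unadjusted p under 0.05. Of the 6 dim probe sets of these genes 3 fell, where 12.4% of all probe sets from 6 to 11 did. With annotation to several genes allowed, 77 symbols could be read, 73 of them at 13 or more. *Rpl7l1* was then the 1 gene to fall and none rose. Over all 110 probe sets annotated to several genes, none of 78 at 13 or more passed, also at an unadjusted p under 0.05, while of 23 between 6 and 11, 3 fell and 1 rose, a share of falls near the 12.4% of all probe sets in the range. With the replicate number as a block 5 of the 23 fell, against 18.3%.

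The bright and dim probe sets also differed in kind. Affymetrix marks with _x_at or _s_at a probe set whose probes also match other transcripts, and with _a_at one that reads several transcripts of 1 gene. Of the 69 at 13 or more, 35 were marked _x_at, 26 _a_at and 2 _s_at, and 6 were plain. Of the 22 between 6 and 11, 17 were plain. With plain probe sets alone, 26 of the genes could be read, 8 fell, none rose (7.93% and 5.89% of all 16591 genes so read) and the median difference was -0.18. Level and kind went together for most probe sets but not all. None of the 6 plain ones at 13 or more passed (-0.19 to 0.03, 1 lower at an unadjusted p under 0.05), and 2 of the 5 marked ones between 6 and 11 fell, namely those of *Rpl22* (-0.67) and *Rpl41* (-0.43). The difference between the kinds was not tested, and which part of each mRNA the probes read was not analysed.

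Of the 43 genes with a promoter in the RefSeq set (250 bases before to 50 after the start, GRCm38.p6), 20 had the pyrimidine run described above at an annotated start, which is 46.51% against 21.16% of 27025 genes. The share was 25.37% of the mitochondrial ribosomal protein genes and 15.22% of the ribosome biogenesis genes. CACCC, the core of the sites that KLF factors bind, was looked for on both strands and was in 53.49% of the promoters, against 59.82% of all. CCGGAA, the core of ETS family sites such as those of GABP, was in 65.12% against 16.66%, and AAGATGG, a core of YY1 sites, in 18.6% against 7.278%. None of these 3 motifs contains another on either strand. A match is a description of the letters and not a bound site.

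Other genes of protein synthesis give the setting for these values, but they were read at other levels. The median of the mean log2 intensity was 14.27 for cytosolic ribosomal protein genes, 10.54 for ribosome biogenesis genes and 10.66 for mitochondrial ribosomal protein genes. Of all genes 8.35% fell and 6.22% rose. Between 10 and 12, 16.8% fell and 11.9% rose. At 14 or more 1.75% fell and 5.26% rose, but 33 of those 57 genes are the ribosomal protein genes themselves. Of the 24 others 4.17% fell and 12.5% rose. Genes of ribosome biogenesis fell in 29 of 50 cases and none rose (0 of 50 also at an unadjusted p under 0.05), with a median of -0.41. The largest changes were *Wdr12* (-0.75), which acts in large subunit assembly, *Polr1a* (-0.71), the largest subunit of RNA polymerase I, and *Nolc1* (-0.66), a nucleolar protein. Of 76 genes of mitochondrial ribosomal proteins 23 fell and none rose (3 higher at an unadjusted p under 0.05), with a median of -0.19, led by *Mrps27* (-0.72), *Mrps28* (-0.69) and *Mrps5* (-0.65). These counts moved to 10 to 32 and to 9 to 20 when 1 array was left out. They were 12 and 10 without evGFP array 1, 10 and 9 without evGFP array 2, 12 and 11 without GFP-KLF2 array 1, and 15 and 12 without GFP-KLF2 array 2, and the first was 15 without GFP-KLF2 array 3. With cyclic loess they were 17 and 15.

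**Figure D5:**
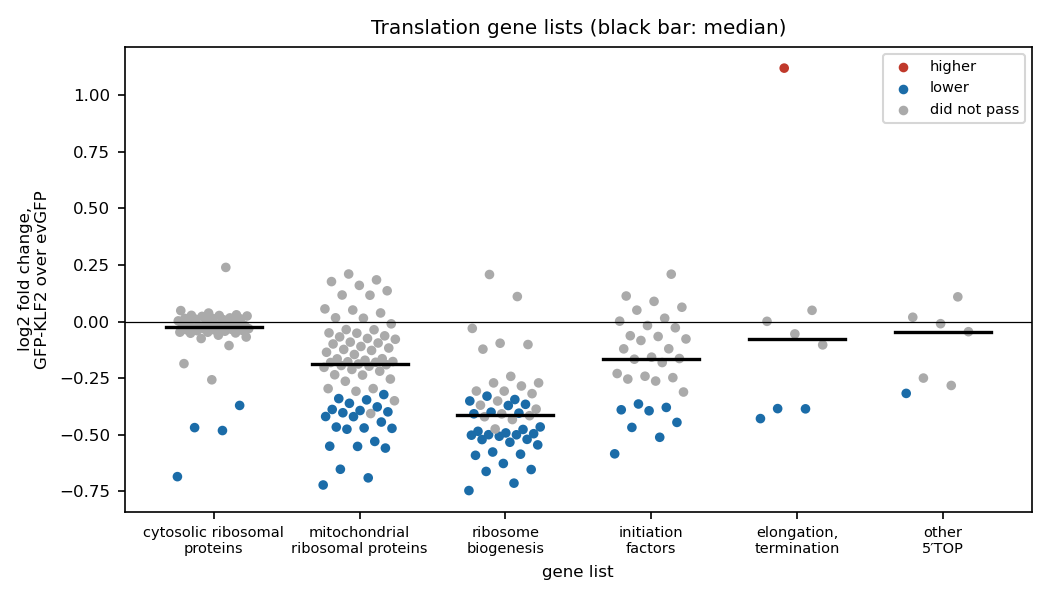
Log2 fold change of GFP-KLF2 over evGFP cells (vertical axis) of each gene in 6 lists of protein synthesis genes (horizontal axis), coloured by the outcome of the test, with the list's median as a black bar. The medians are -0.02 for the cytosolic ribosomal proteins, -0.19 for the mitochondrial ones and -0.41 for ribosome biogenesis.

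The remaining lists hold translation factors and genes that control 5′TOP mRNAs. Of 33 initiation factors 8 fell and none rose (1 higher at an unadjusted p under 0.05), with a median of -0.16, led by *Eif2b3* (-0.58), *Eif5b* (-0.51) and *Eif4a2* (-0.47). That count was 3 without evGFP array 1 or 2 or GFP-KLF2 array 1 or 2. The median level of the initiation factors was a log2 of 12.17, and of all genes from 12 to 13, 15.5% fell and 11.8% rose. Of 8 elongation and termination factors, the termination factors *Etf1* (-0.43) and *Gspt1* (-0.39) and the recycling factor *Abce1* (-0.38) fell and the kinase *Eef2k* (1.12) rose. None of the 3 that fell passed without evGFP array 1 or 2 or GFP-KLF2 array 1, 1 passed without GFP-KLF2 array 2 or 3, and *Eef2k* did not pass without evGFP array 1 or 2 or GFP-KLF2 array 1 or 2.

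Of 7 other genes with 5′TOP mRNAs, *Nap1l1* (-0.32), a histone chaperone, fell, though not when any 1 array was left out or with cyclic loess, and none rose (0 also at an unadjusted p under 0.05). Of 13 genes of mTORC1 and its control of 5′TOP mRNAs, *Rheb* (0.41), the activator of mTORC1, rose, though not without evGFP array 1 or 2 or GFP-KLF2 array 2, and none fell (5 were lower at an unadjusted p under 0.05). Of 5 factors that act at ribosomal protein promoters, *Sp1* (-0.34) fell, though not when any 1 array was left out or with cyclic loess. *Fau*, the source of a small subunit protein outside the naming rule, differed by 0.12 at a mean log2 of 14.32 and did not pass.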

How the data were processed

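RNA of 6 samples was measured on Affymetrix Mouse Genome 430 2.0 arrays. Per the labels and the methods, the intensities were computed by the authors with RMA, which corrects background, sets all arrays to 1 distribution and summarises each probe set, so that values are relative within an array. They deposited them on a linear scale, and log2 was taken here. The versions of RMA and limma they used are not given in the sources used here. Of 45101 probe sets, 64 controls were left out.

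The model, with a constant per group, was fitted in R 4.3.3 with limma 3.58.1. The methods print a threshold of 0.046%. Here an adjusted p under 0.046 was used and 0.00046 was an alternative. The methods also set a minimum fold change, which was not applied here. The largest fall among the ribosomal protein genes by brightest probe set, 1.61-fold for *Rpl12*, lies below that minimum. The fit was tested on simulated data. Python 3.11.15 read the promoters and drew the plots. Gene names came from GEO's platform annotation: 34945 probe sets had 1 gene, 932 several and 9160 none, and all 49 genes matched RefSeq. The number of arrays limits the precision.

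Arrays of the same replicate number deviated alike from their group means (r = 0.33, 0.44 and 0.47, against -0.38 to 0.06 for other pairs). The replicate block rests on this check and not on the labels, which do not state a pairing. Deviations from a group mean are not independent of each other, so the check cannot establish that the samples were paired. What arrays of the same number share was not tested.

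Named genes were the largest changes that passed, the 5 brightest and 5 dimmest, *Rpsa*, *Rplp0*, *Rplp1*, *Rplp2*, *Rps6*, *Rpl5*, *Rpl11* and the paralogs, and of each other list up to 3 of the largest that passed. *Fau* and the genes with both bright and dim probe sets were named after their values were seen. The genes, the lists and the tests were chosen with earlier results of these data known. Alternatives were the replicate block, other thresholds, scalings, variance models, array weights, filters and choices of probe set, and leaving out each array.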

Additional observations from a re-analysis of the deposited data

How the results depend on the processing

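The number of ribosomal protein genes that fell (4) was 0 at a threshold of 0.00046 and 2 with cyclic loess (5.28% of all genes fell). It was 7 with the mean of a gene's probe sets (9.04% of all genes fell) and 8 of 26 with plain probe sets (7.93%). With annotation to several genes allowed (chosen after seeing the data) it was 1 of 77, against 8.35% of all genes. It was 2 to 4 when 1 array was left out. The number that rose (0) was 1, *Rpl22l1*, with cyclic loess, with an intensity trend and robust prior and with probe sets under a mean log2 of 6 left out. The cause of these changes was not tested. The replicate block moved no count of ribosomal protein genes that rose (0) or fell (4) and no call of a ribosomal protein gene named by its brightest probe set. Over all genes it gave 1561 higher and 2203 lower calls in place of 1131 and 1519, and leaving out 1 array gave 556 to 1041 and 591 to 1132. With cyclic loess 1388 rose and 961 fell, so that 59.1% and not 42.7% of calls were higher, and at 0.00046 31 rose and 3 fell.

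The median of all 49 genes was -0.0358 with arrays centred on their medians, 0.0257 with cyclic loess, -0.0372 with the mean of probe sets, -0.183 with plain probe sets and -0.0423 for genes under 13, and -0.0301 to -0.0208 without 1 array. The median of small subunit genes was -0.0348 centred, 0.0270 with cyclic loess, -0.0109 with quantile normalization, -0.0288 with array weights, -0.0499 with the mean of probe sets, -0.250 with plain probe sets, -0.116 under 13 and -0.0306 to -0.0155 without 1 array. That of large subunit genes was 0.0263 with cyclic loess, -0.108 with plain probe sets and -0.0310 to -0.0190 without 1 array. Of the 56 dimmer probe sets 9 fell, where 6.39% of all probe sets of the array did. The 9 became 11 with the replicate block, 0 at 0.00046, 5 with cyclic loess and 2 to 7 without 1 array. Of the 22 between 6 and 11, 12 fell, where 12.4% of all probe sets in the range did. The 12 became 0 at 0.00046, 6 with cyclic loess and 4 to 10 without 1 array. Whether signal near the top of the range narrows the differences of the 36 bright genes was not tested.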

Other observations

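The 1 probe set of a ribosomal protein symbol that rose, among those annotated to several genes, is annotated to *Rpl13a* and *Flt3l* together. It read 10.08, 10.40 and 10.35 in evGFP and 11.19, 11.62 and 11.47 in GFP-KLF2 arrays, a difference of 1.15 (limma adjusted p = 0.00325). The brightest probe set annotated to *Rpl13a* alone had a mean log2 of 14.56 and differed by 0.01. Its dimmer ones, at 12.63 to 14.39, differed by -0.17 to 0.02 and none passed.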
